A study of Mus musculus with 4 samples.

Results

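The first 500 kb of the mouse autosomes, the end of each chromosome nearest its centromere, was examined at 6226 CCGG sites of the 1594137 sites listed. A site belonged to this window when it lay within 500000 bp of the lowest CCGG position on its autosome, and all 19 autosomes contributed, with 176 sites on chromosome 1 at the low end and 541 on chromosome 11 at the high end. The lowest listed positions ran between base 3000261 on chromosome 4 and base 3054968 on chromosome 9 (mm9). The adjoining 18141 sites, 500001 to 2000000 bp from the same position, served for comparison.

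DNA came from MC1-ZE7 mouse embryonic stem cells of the MC1 (129S6/SvEvTac) strain at passage 31, grown without feeders on gelatin with serum and leukemia inhibitory factor. All cells carried pZscan4c-Emerald, a fluorescent reporter named for the Zscan4c promoter, and were sorted by flow cytometry into an Emerald-high and an Emerald-negative fraction. Reporter brightness is the sole measure of Zscan4 state in the labels, and 1 cell line stood for the whole comparison. Each fraction gave 1 HpaII and 1 MspI library, 4 libraries in all, so no difference between the fractions has a replicate check. The Emerald-high libraries held 5662614 HpaII and 9372711 MspI tags, and the Emerald-negative libraries held 9535691 HpaII and 9307616 MspI tags.

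HELP tagging sequences short tags beside CCGG sites. HpaII cuts CCGG only where its central CG is unmethylated, while MspI cuts it in either state, so a high HpaII tag number relative to MspI means little methylation. Mouse autosomes are acrocentric: the centromere sits at the low-coordinate end, behind long arrays of satellite repeats, and the first assembled sequence next to it is rich in duplicated segments. Zscan4 is a zinc finger protein family expressed in a small, changing share of embryonic stem cells and known for its action at telomeres.

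Promoters with many CCGG were the places in the window where a gene could be named. The deposited sites carry no gene names, and no mm9 annotation was used here. Names were therefore given where the spacing of at least 4 CCGG in a RefSeq promoter of build GRCm38.p6 (300 bases, 250 of them before the start) recurred once among the listed sites. Of 4373 such promoters, 4306 matched at 1 place, all of them on the chromosome RefSeq gives. In the window, 19 promoters of 14 genes were found this way. The 250 bases before the start are printed for 3 of them, on chromosomes 11 and 17, because they come from the genes at which the interval of the difference lay below 0. Capitals mark CCGG. Of all RefSeq promoters, 47.1% hold a CCGG in the same 250 bases and 8.71% hold at least 4. CCGG reads the same on both strands, and CCGG copies do not overlap.

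Eif4enif1 (chr11:3202103-3202352, plus strand, GRCm38.p6): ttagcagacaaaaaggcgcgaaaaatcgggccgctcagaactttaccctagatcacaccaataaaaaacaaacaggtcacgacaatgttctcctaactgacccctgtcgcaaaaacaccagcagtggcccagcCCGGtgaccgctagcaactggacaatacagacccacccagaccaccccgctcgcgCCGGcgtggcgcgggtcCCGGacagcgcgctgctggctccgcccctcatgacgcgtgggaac
8430429K09Rik (chr11:3452187-3452436, plus strand, GRCm38.p6): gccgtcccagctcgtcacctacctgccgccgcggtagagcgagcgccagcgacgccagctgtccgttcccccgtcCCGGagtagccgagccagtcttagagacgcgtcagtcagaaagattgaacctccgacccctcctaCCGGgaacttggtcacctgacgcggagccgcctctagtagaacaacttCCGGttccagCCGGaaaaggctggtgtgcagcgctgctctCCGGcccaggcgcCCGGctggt
A230045G11Rik (chr17:3115285-3115534, minus strand, GRCm38.p6): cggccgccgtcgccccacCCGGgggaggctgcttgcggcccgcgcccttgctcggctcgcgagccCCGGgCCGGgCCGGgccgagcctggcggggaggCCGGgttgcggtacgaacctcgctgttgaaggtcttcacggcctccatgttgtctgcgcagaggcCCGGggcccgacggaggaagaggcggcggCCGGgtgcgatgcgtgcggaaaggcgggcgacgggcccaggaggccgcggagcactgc

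The window was marked first by shared sequence. Fractional tags, where the deposited number for a site is not whole, occurred at 875 of the 6226 sites (14.1%), against 3.71% of sites between 500 kb and 2 Mb and 2.84% of sites farther in. The other sites are called whole-tag, and these include the 1874 sites of the window (30.1% of the 6226) with no tag in any library. The share fell with distance inside the window: it was 28.1% in the first 100 kb, 15.5% in the second and 7.34% in the fifth, and lay between 2.23% and 5.44% in every step beyond. Autosomes differed widely, with 34.7% fractional-tag sites on chromosome 4, 30.0% on chromosome 16, 28.8% on chromosome 5 and 0.993% on chromosome 2. The window was also poorer in dense sites, here those with 10 or more CCGG within 500 bp counting the site itself, which made up 4.64% of its sites against 10.2% between 500 kb and 2 Mb. Isolated sites, with no other CCGG within 500 bp, made up 37.0% and 36.1%.

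Many fractional-tag sites were copies of one another as far as their tags show. Of the 666 fractional-tag sites of the window with at least 10 tags over the 4 libraries, 464 (69.7%) had exactly the same tag number, within 0.001 tag, in all 4 libraries as some other site. Between 500 kb and 2 Mb this held for 267 of 482 sites (55.4%), and farther in for 19884 of 31091 (64.0%). The place of the matching site differed more than the share did: for 304 of the 464 sites (65.5%) a match lay in the first 500 kb of another autosome, against 10 of the 267 sites (3.75%) in the adjoining stretch. A match within the same autosome's first 500 kb was found for 68 of the 464 sites.

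The matches gathered between certain windows. Among 25 combinations of windows with at least 5 matched site pairs, 0 had every pair within 200 bp of a common offset. Within that limit lay 13 of 23 pairs on chromosome 16 and 5 of 22 between chromosomes 4 and 6. Chromosome 16 matched itself at 46 sites, and 28 of its sites matched chromosome 19. Chromosome 5 had 26 sites matched on chromosome 12 and 18 on chromosome 13, and 22 sites of chromosome 4 matched chromosome 6. On chromosome 16 the 23 matching pairs ran in opposite order, as in an inverted repeat, with one arm starting at base 3005797 and the other ending at base 3456106. The link between chromosomes 11 and 17 also ran in opposite order. Its most heavily tagged pair, at base 3026101 of chromosome 11 and base 3082403 of chromosome 17, held 442 HpaII and 327 MspI tags in the Emerald-high libraries, and 706 HpaII and 406.5 MspI tags in the Emerald-negative libraries, at each of its sites. Chromosomes 1, 2, 3 and 10 had no match in any first-500-kb window. A value at a matched site is therefore shared by several places and cannot be assigned to a single one of them.

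**Figure D1:**
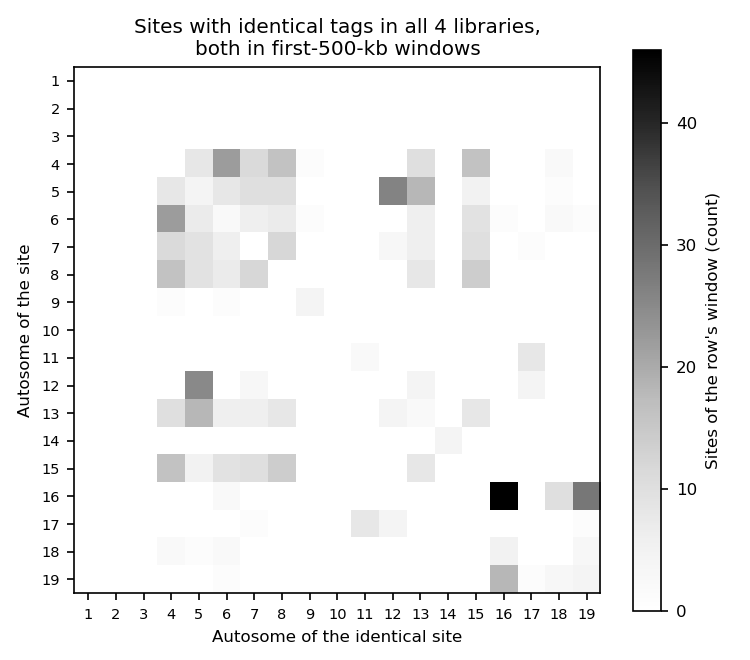
Number of fractional-tag sites in the first 500 kb of each autosome (rows) whose tags in all 4 libraries equal those of a site in the first 500 kb of the column's autosome, darker for more sites. Chromosome 16 with itself has 46 sites, chromosome 16 with chromosome 19 has 28, chromosome 5 with chromosome 12 has 26, and chromosomes 1, 2, 3 and 10 are blank.

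Tag depth was uneven between autosomes, in all 4 libraries alike. Relative to the library's mean over all sites, the window of chromosome 6 held 7.27 times the HpaII and 2.98 times the MspI tags per site in Emerald-high cells, against 9.03 and 2.78 times in Emerald-negative cells. The window of chromosome 11 stood at 4.21 and 2.76 times in Emerald-high cells, against at 4.10 and 2.61 times in Emerald-negative cells. Chromosome 11 held 8.69% of the window's sites but 24.0% of its HpaII and 19.9% of its MspI tags in Emerald-high cells, against 22.9% and 19.3% in Emerald-negative cells. Sums over whole-tag sites therefore lean on chromosome 11, while the tags of chromosome 6 lay mostly at fractional-tag sites: its whole-tag sites held 617 of 21165 HpaII tags in the Emerald-high library.

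**Figure D2:**
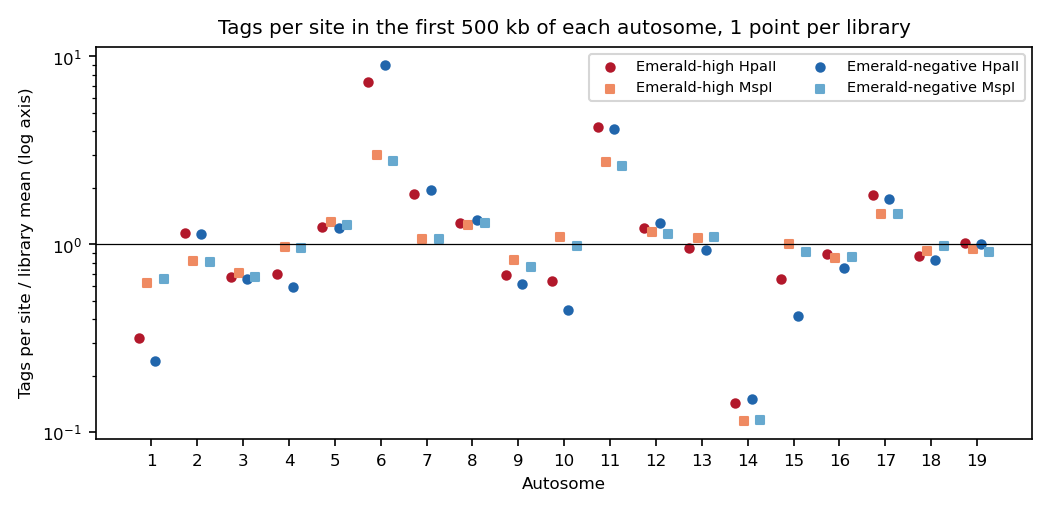
Tags per site in the first 500 kb of each autosome, divided by the library's mean over all sites (log axis, 1 point per library, no error since each group has 1 library). Chromosomes 6 and 11 lie above the line at 1 in all 4 libraries, and chromosome 14 lies lowest in all 4.

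Chromosome 14 was almost empty. Of its 305 sites in the window, 266 (87.2%) had no tag in any library, against 27.2% of the window's sites on the other autosomes. Among its whole-tag sites, 1.11% held an MspI tag in each MspI library, against 4.28% and 5.09% at its own whole-tag sites between 500 kb and 2 Mb. Since MspI cuts CCGG in either methylation state, no methylation can be read there. Its 122 isolated whole-tag sites together held 0 HpaII and 10 MspI tags in Emerald-high cells, against 1 HpaII and 11 MspI tags in Emerald-negative cells. A count of 0 allows up to 3 tags. Of its fractional-tag sites, 17 had exact matches at 62 sites elsewhere on chromosome 14, between bases 3617953 and 20315908.

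A pair of tagless runs had the same layout. The largest dense runs of the window, 37 sites at chr13:3108788-3110156 and 35 sites at chr16:3383792-3385160, held no tag in any library. Both spanned 1368 bp between their first and last site and shared 31 of their site positions counted from the first site. The spacing of the first 6 sites recurred at 1012 places on 20 chromosomes, and 979 of these places (96.7%) had no tag in any of the 6 sites.

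Cutting differed between the fractions by CCGG density. The measure is the log2 ratio of HpaII to MspI tags in Emerald-high cells minus the same in Emerald-negative cells, with tags scaled to library totals. A positive value means more HpaII cutting in Emerald-high cells relative to the library totals. It can be read as less methylation only as far as that scale holds. Its 95% interval covers counting error only, and tags without molecular identifiers are not independent molecules. A difference was called where the interval excluded 0.

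At the 1954 isolated whole-tag sites of the window, Emerald-high cells held 5631 HpaII and 10864 MspI tags, and Emerald-negative cells held 7657 HpaII and 11330 MspI tags. HpaII cutting was thus higher in Emerald-high cells, by 0.38 (0.317 to 0.442) on the log2 scale. Sites with 2 to 4 CCGG showed 0.04 (-0.0112 to 0.0882), which was not called. Sites with 5 to 9 CCGG, 753 in number, held 4614 HpaII and 3176 MspI tags in Emerald-high cells, against 9575 HpaII and 2569 MspI tags in Emerald-negative cells. Their difference was -0.60 (-0.688 to -0.507), lower in Emerald-high cells. The 279 dense sites include the tagless runs. Together they held 1368 HpaII and 709 MspI tags in Emerald-high cells, against 3211 HpaII and 527 MspI tags in Emerald-negative cells. Their difference was -0.90 (-1.08 to -0.711). Over all 5351 whole-tag sites the classes together gave -0.03 (-0.0671 to 0.000852), which was not called. Leaving out any of 7 autosomes brought it past the threshold, within -0.0408 to -0.0194 over all autosomes left out. Library-total scaling fixes this value over the whole table, and whole-tag sites farther in gave 0.00146. Scaled to dense sites, the window's value was 0.69 (0.653 to 0.721).

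The zero point of these values depends on the scaling. Scaling to dense sites in place of library totals raised every class by 0.72, which took isolated sites to 1.10, turned the 5 to 9 class to 0.12 and left dense sites at -0.18, no longer called. The order of the classes does not depend on it. MspI tags, which should not follow methylation, also differed between the fractions by density: the Emerald-high minus Emerald-negative log2 difference in MspI tags was -0.07 at isolated sites, 0.05 at 2 to 4 CCGG, 0.30 at 5 to 9 and 0.42 at dense sites. The HpaII libraries alone gave 0.31, 0.09, -0.30 and -0.48 in the same order. The part of the MspI difference in the result was not tested.

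**Figure D3:**
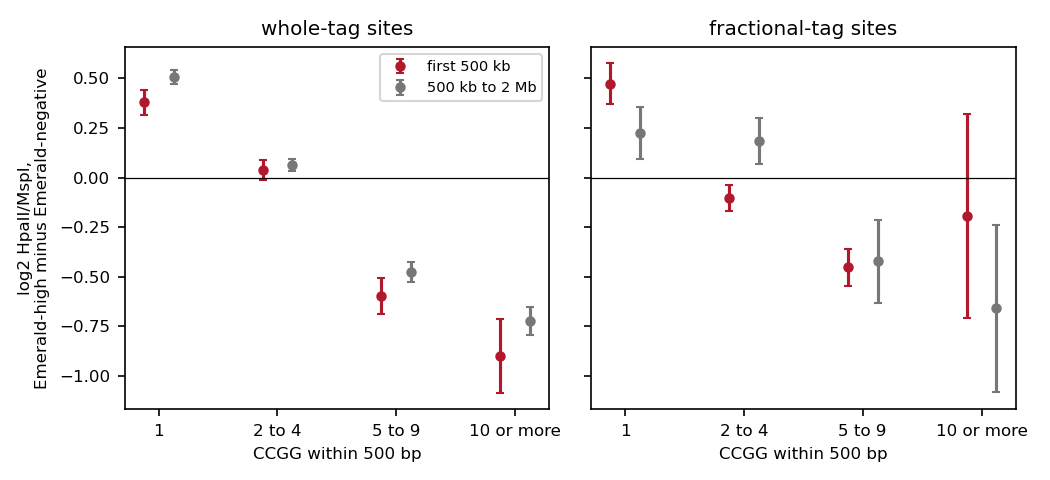
Log2 HpaII/MspI difference, Emerald-high minus Emerald-negative, by number of CCGG within 500 bp, for the first 500 kb (red) and 500 kb to 2 Mb (grey), with 95% counting intervals. At whole-tag sites the window steps down from 0.38 at isolated sites to -0.90 at dense sites, close to the grey points.

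The adjoining stretch showed the same steps. Between 500 kb and 2 Mb the whole-tag differences were 0.51, 0.06, -0.48 and -0.72 for isolated, 2 to 4, 5 to 9 and dense sites. The first 500 kb minus that stretch came to -0.13 (-0.199 to -0.0546) at isolated sites and -0.12 (-0.224 to -0.0184) at 5 to 9 CCGG, both called. It was -0.03 (-0.0850 to 0.0331) at 2 to 4 CCGG and -0.17 (-0.373 to 0.0252) at dense sites, neither called. Chromosome 11 decided the isolated value: without it the difference was -0.0657 (-0.146 to 0.0147), not called. The 5 to 9 value also lost its call without chromosome 11, at -0.0821, and without chromosome 13, at -0.102. Without chromosome 13 the dense value became called, at -0.24.

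Within each fraction, the HpaII/MspI level of isolated sites in the window exceeded that between 500 kb and 2 Mb by 0.07 (0.0174 to 0.125) on the log2 scale in Emerald-high cells and by 0.20 (0.150 to 0.246) in Emerald-negative cells. The Emerald-high value lost its call without chromosome 2, at 0.0224, without chromosome 7, at 0.0010, and without chromosome 11, at 0.0099. At 2 to 4 CCGG the levels were higher in the window by 0.13 in the Emerald-high fraction and 0.15 in the Emerald-negative one, but without chromosome 11 both turned, to -0.11 and -0.0893. At 5 to 9 CCGG the values were -0.17 (-0.245 to -0.0964) in Emerald-high cells and -0.05 (-0.121 to 0.0219) in Emerald-negative cells, the Emerald-negative value being called at -0.19 without chromosome 11, and also called without chromosome 2, 18 or 19. At dense sites they were -0.17 (-0.307 to -0.0263) and 0.01 (-0.134 to 0.149) in the same order, and the Emerald-high value lost its call without chromosome 11, at -0.11, and without chromosome 13, at -0.0988. Over all whole-tag sites the window stood at -0.09 in the Emerald-high fraction and -0.10 in the Emerald-negative one. These values were -0.21 and -0.24 without chromosome 11, and -0.0191 and -0.0069, neither called, without chromosome 19. Both turned sign at sites with at least 10 MspI tags, at 0.16 and 0.21, against all other autosomal sites, at 0.12 and 0.16, and with fractional-tag sites added, at 0.0303 and 0.0583.

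The isolated sites were compared autosome by autosome on the 18 with enough tags, at least 20 in each library in both stretches, which left out chromosome 14. The window's difference averaged 0.48 ± 0.25 (SD over 18 autosomes) and was above 0 on 17 of them. Chromosome 4 was highest at 0.94 (0.469 to 1.42), on 97 HpaII and 302 MspI tags in the Emerald-high fraction and 89 HpaII and 314 MspI tags in the Emerald-negative one. Chromosome 3 was lowest at -0.07 (-0.353 to 0.212). The window minus the adjoining stretch averaged -0.06 ± 0.21, with 8 autosomes above 0 and 10 below. Chromosomes 4 and 8 stood highest, at 0.34 (-0.173 to 0.847) and 0.26 (-0.0880 to 0.617). Chromosomes 13 and 3 stood lowest, at -0.37 (-0.875 to 0.135) and -0.36 (-0.724 to -0.00351). The interval excluded 0 on 2 autosomes, chromosome 3 and chromosome 11, where the value was -0.36 (-0.540 to -0.176).

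**Figure D4:**
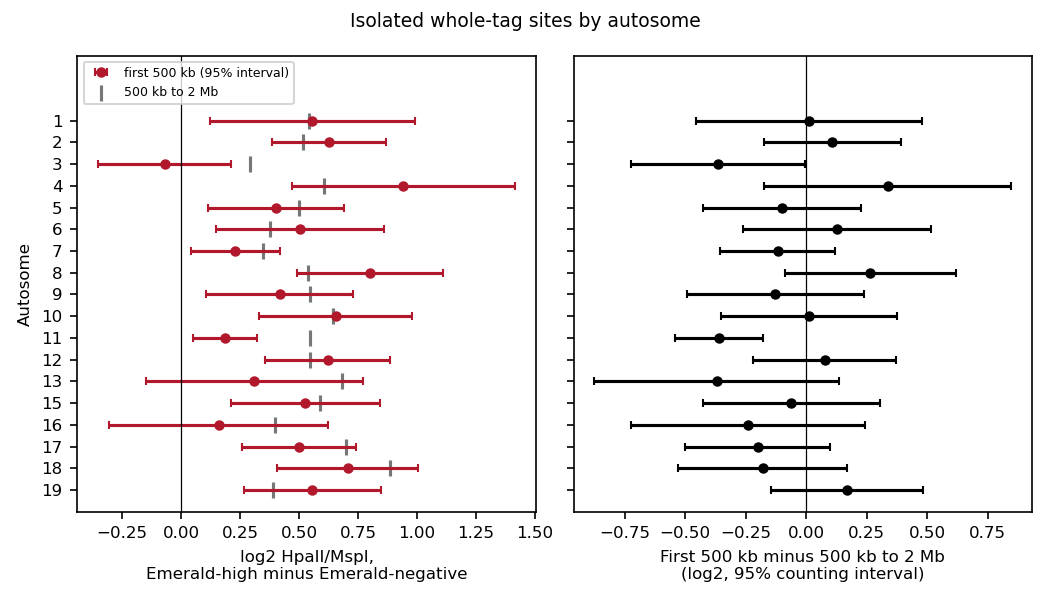
Isolated whole-tag sites by autosome: log2 HpaII/MspI difference, Emerald-high minus Emerald-negative, in the first 500 kb with its 95% counting interval and in 500 kb to 2 Mb as a grey mark (left), and the first minus the second (right). The window lies above 0 on 17 of 18 autosomes, and on the right the intervals of chromosomes 3 and 11 alone exclude 0.

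The window was set against stretches of the same length along the autosomes. These were tiles of 500 kb counted from each autosome's lowest position, with at least 20 tags of the class in each library, first tiles included. Over 4778 such tiles, isolated sites had a median difference of 0.54 with quartiles of 0.38 and 0.71. The 18 first tiles had a median of 0.52, with 5 below the lower quartile and 2 above the upper one. At 2 to 4 CCGG the 18 first tiles had a median of 0.04, against 0.19 over 4729 tiles, with 7 below the lower quartile and 3 above the upper one.

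The first 100 kb of chromosome 11 held more MspI tags per site than the rest of its window. In the first 100 kb over all autosomes, isolated sites gave 0.16 (0.0204 to 0.296), lower than in each of the 19 following steps. Without chromosome 11 the same step gave 0.55 (0.302 to 0.794). The 92 whole-tag sites in the first 100 kb of chromosome 11 averaged 42.1 MspI tags in the Emerald-high fraction and 39.9 in the Emerald-negative one, while its next steps averaged 6.37 to 8.62 and 5.83 to 7.29. The 25 isolated sites among them held 774 HpaII and 1269 MspI tags in Emerald-high cells, against 1279 HpaII and 1236 MspI tags in Emerald-negative cells. Their difference was 0.00 (-0.172 to 0.171), against 0.86 in the second step, 0.51 in the third, 0.04 (-0.487 to 0.576) in the fourth and 0.60 in the fifth.

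**Figure D5:**
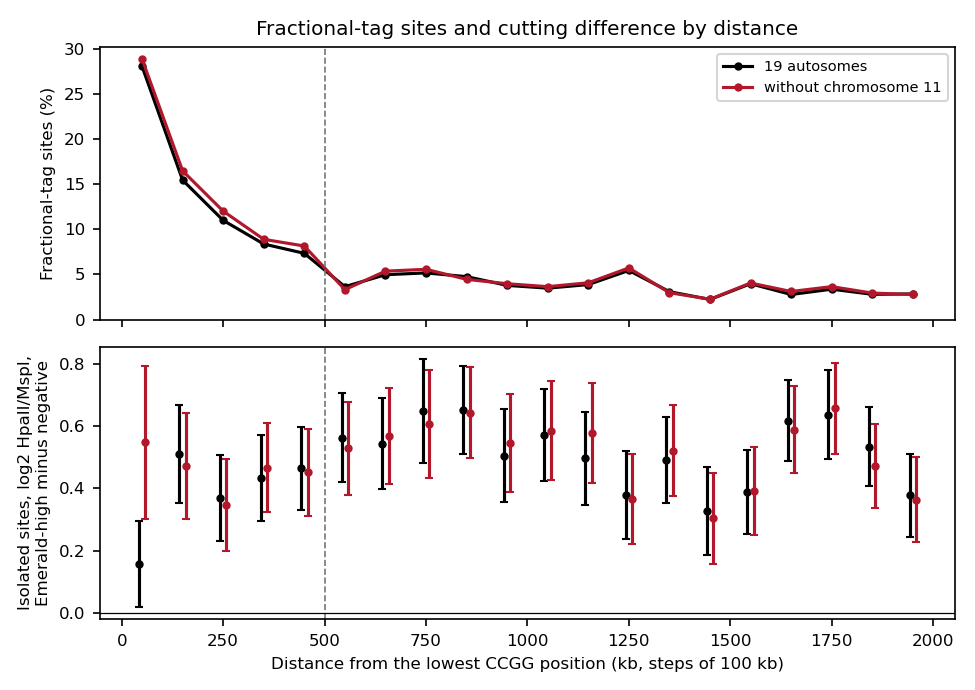
Share of fractional-tag sites (top) and log2 HpaII/MspI difference of isolated whole-tag sites, Emerald-high minus Emerald-negative (bottom, 95% counting intervals), in 100 kb steps from the lowest CCGG position, for 19 autosomes and without chromosome 11. The share drops from 28.1% in the first step, and the low first point of the lower panel, 0.16, stands at 0.55 without chromosome 11.

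Fractional-tag sites, kept apart, gave 0.47 (0.373 to 0.576) at isolated sites, -0.10 (-0.166 to -0.0351) at 2 to 4 CCGG and -0.45 (-0.547 to -0.358) at 5 to 9. Only 10 of them were dense, with -0.19 (-0.707 to 0.320). The intervals of fractional-tag sites treat divided tags as counts and matched sites as separate, so they may not measure counting error. Chromosome 6 decided the middle values: without it the 2 to 4 class turned to 0.13 and the 5 to 9 class stood at -0.15, no longer called. Set against fractional-tag sites between 500 kb and 2 Mb, the window differed by -0.20 (-0.288 to -0.108) over all classes, but by 0.0946 without chromosome 6. By class the gap was 0.25 (0.0836 to 0.414) at isolated sites, of opposite sign to that of isolated whole-tag sites, and -0.28 (-0.417 to -0.150) at 2 to 4 CCGG. The isolated value lost its call without chromosome 1, at 0.0530, and the 2 to 4 value without chromosome 6, at -0.0664. A run of 7 fractional-tag sites at chr6:3150545-3151587 held 5293 HpaII and 2871 MspI tags in Emerald-high cells, against 11539 HpaII and 2506 MspI tags in Emerald-negative cells. With library totals as the scale, HpaII cutting there was lower in Emerald-high cells, with a difference of -0.56 (-0.649 to -0.468). Scaling to dense sites adds 0.72, more than the size of this difference, so its direction depends on the scale. In that run HpaII tags alone gave -0.37 and MspI tags 0.19, and the part of the MspI difference was not tested. The run's most tagged site, base 3151422, held 1358.5 HpaII and 769.5 MspI tags in Emerald-high cells, against 3314.5 HpaII and 786 MspI tags in Emerald-negative cells. A second heavily tagged run, 4 whole-tag sites at chr11:3093351-3093630, held 2171 HpaII and 1429 MspI tags in Emerald-high cells, against 3403 HpaII and 1340 MspI tags in Emerald-negative cells. It showed no called difference, at 0.02 (-0.112 to 0.153).

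At single sites the level can be put on a scale that runs from 0 (no HpaII tag, methylated) to 100 (HpaII tags alone, unmethylated), by the angle between scaled HpaII and MspI tags. The 300 isolated whole-tag sites with at least 10 tags in each MspI library had a median score of 30.0 in the Emerald-high fraction and 16.6 in the Emerald-negative one, and 71.7% of them scored higher in Emerald-high cells. Between 500 kb and 2 Mb the medians were 28.1 and 14.7. At the 63 sites with 5 to 9 CCGG the medians were 72.2 in the Emerald-high fraction and 76.5 in the Emerald-negative one. At the 9 dense sites covered they were 74.1 and 85.4.

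Bins of 100 kb gave few calls in the window. Of its 95 bins, 92 had at least 20 tags in each MspI library, whole-tag and fractional-tag sites together. These were tested by a two-sided Fisher's exact test that compares the 4 libraries, not the conditions. By an adjusted p under 0.05 (Benjamini-Hochberg over all 25522 bins) and at least a 2-fold change, 3 bins (3.26%) were higher in Emerald-high cells, against 6.52% of all bins, and 0 were lower, against 0.0157%. By the adjusted p alone 13 were higher (14.1%), against 20.5% of all bins, and 7 were lower (7.61%), against 5.4%. By an unadjusted p under 0.05 from the same exact test, 20 of the 92 were higher, against 30.1% of all bins. On the same threshold 7 of the 92 were lower, against 8.04%. The median difference of the window's bins was 0.11, against 0.26 over all bins.

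The bins called higher lay on chromosomes 4, 1 and 8. The bin at chr4:3400262-3500261 held 85 HpaII and 283.5 MspI tags in Emerald-high cells, against 65.3 HpaII and 304.5 MspI tags in Emerald-negative cells, a difference of 1.24 ± 0.26 (SE; Fisher's exact test, adjusted p = 0.000116). The bin at chr1:3204693-3304692 stood at 1.19 ± 0.40 (adjusted p = 0.0200, same exact test), and that at chr8:3104525-3204524 at 1.17 ± 0.35 (adjusted p = 0.00981, same exact test). None of these bins held a dense site. Fractional-tag sites were 14 of the 50 sites in the chromosome 4 bin, 2 of 34 on chromosome 1 and 1 of 36 on chromosome 8. The lowest bins were chr17:3100560-3200559, with 15 dense sites, at -0.54 ± 0.17, then chr6:3100678-3200677, which holds the run of 7 sites, at -0.49 ± 0.04, and chr11:3304812-3404811 at -0.46 ± 0.10. Their adjusted p by the exact test were 0.0108, 2.2e-27 and 0.000180, but none reached the 2-fold change.

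In the window 979 sites had at least 10 tags in each MspI library, 702 whole-tag and 277 fractional-tag. The same exact test called 2 of them higher in Emerald-high cells (0.204%), against 0.102% of all 218697 sites tested. It called 0 lower, against 0.0297%. With the minimum raised to 20 tags, the share called higher was 0.778% of 257 sites, against 1.23% of 30996. Both calls at the minimum of 10 tags ended when the variance between MspI libraries beyond counting was allowed for. They also ended when HpaII tags of the Emerald-negative fraction were thinned to equal depth. By an unadjusted p under 0.05 from the same exact test, 87 of the 979 were higher, against 7.77% of all sites. On the same threshold 15 of the 979 were lower, against 0.892%. By the adjusted p alone 3 were higher (0.306%), against 0.106% of all sites, and 4 lower (0.409%), against 0.0576%. The 4 lower sites were fractional-tag sites of the chromosome 6 run. Base 3050041 of chromosome 11 held 11 HpaII and 80 MspI tags in Emerald-high cells, against 1 HpaII and 147 MspI tags in Emerald-negative cells, a difference of 4.22 ± 1.12 (SE, pseudocount of 1 tag; Fisher's exact test, adjusted p = 0.00445). Base 3351071 of chromosome 18 held 11 HpaII and 11 MspI tags in Emerald-high cells, against 4 HpaII and 36 MspI tags in Emerald-negative cells, a difference of 3.65 ± 0.91 (exact test, adjusted p = 0.0232). MspI tags themselves were lower in Emerald-high cells at both, by a log2 difference of -0.88 on chromosome 11 and -1.63 on chromosome 18. The part of this in the calls was not tested.

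The whole-tag sites with most MspI tags were chiefly on chromosome 11. Base 3093630 held 1054 HpaII and 673 MspI tags in Emerald-high cells, against 1490 HpaII and 762 MspI tags in Emerald-negative cells, a difference of 0.44 ± 0.10 (exact test, adjusted p = 0.00583) that fell short of a 2-fold change. Its neighbour at base 3093431, in the same run, stood at -0.22 ± 0.11 (exact test, adjusted p = 0.582). The isolated site at base 3079805 scored 29.5 in the Emerald-high fraction and 16.5 in the Emerald-negative one, at 0.92 ± 0.28 (exact test, adjusted p = 0.187).

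Dense sites formed 25 runs of 289 sites on 13 autosomes, joining sites up to 500 bp apart. In 13 runs every library held at least 10 tags, and all 13 were lower in Emerald-high cells with library totals as the scale, between -1.39 and -0.59 with a median of -1.13. In 10 of them the interval lay below 0. Dense whole-tag sites summed outside the window also lay below 0, at -0.72 between 500 kb and 2 Mb and -0.73 farther in. No share of such runs outside the window is given here. Scaled to dense sites, 9 of the 13 were below 0. The minimum of 10 tags includes HpaII tags and so leaves out runs that HpaII cut little: of the 9 other runs with tags, 6 were above 0 and 3 below, with 1 interval below 0 and none above. The largest run with tags was chr11:3102240-3103302, 23 sites that hold the promoters of Eif4enif1, whose protein binds the translation factor eIF4E and carries it into the nucleus. It held 177 HpaII and 92 MspI tags in Emerald-high cells, against 403 HpaII and 56 MspI tags in Emerald-negative cells, a difference of -1.14 (-1.68 to -0.598). MspI tags there were higher in Emerald-high cells by 0.71 on the log2 scale, and the part of this in the difference was not tested.

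The other named runs held few tags or lay at low levels. The 15 sites at chr11:3051595-3052088 held 13 HpaII and 103 MspI tags in Emerald-high cells, against 7.5 HpaII and 87 MspI tags in Emerald-negative cells, with MspI tags at 3 of the 15 sites in each fraction. Their difference was 1.31 (-0.0485 to 2.67). The 16 sites at chr18:3031033-3031720 held 6 HpaII and 3 MspI tags in Emerald-high cells, against 14 HpaII and 5 MspI tags in Emerald-negative cells. The 15 sites at chr14:3287811-3288321 had MspI tags at 1 site in each fraction, and so did the run on chromosome 18.

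All 19 matched promoters had a difference below 0 with library totals as the scale, and 12 had one when scaled to dense sites. Counting promoters with the same sites once, 16 of 16 lay below 0 and 4 of 16 had the interval below 0. Over all chromosomes, the same held for 86.5% and 25.3% of 4104 site sets with tags in every library. For 7 promoters of 3 genes in the window the interval lay below 0. These were 2 windows of starts of Eif4enif1 that share the same 7 sites, another of its starts, 3 starts of 8430429K09Rik that share 7 sites, and A230045G11Rik. The sites of A230045G11Rik, whose CCGG-rich sequence is printed above, held 42 HpaII and 27 MspI tags in Emerald-high cells, against 110 HpaII and 16 MspI tags in Emerald-negative cells, a difference of -1.38 (-2.41 to -0.353). Those of 8430429K09Rik held 96 HpaII and 47 MspI tags in Emerald-high cells, against 225 HpaII and 31 MspI tags in Emerald-negative cells, a difference of -1.07 (-1.81 to -0.328). Scaled HpaII tags exceeded scaled MspI tags in both fractions at each of these promoters. MspI tags at each of them were higher in Emerald-high cells, by 0.59 to 0.77 on the log2 scale. The part of this in the differences was not tested.

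At the other promoters the interval held 0. Gal, which encodes the neuropeptide galanin, held 84 HpaII and 29 MspI tags in Emerald-high cells, against 174 HpaII and 27 MspI tags in Emerald-negative cells, a difference of -0.39 (-1.24 to 0.453). Hspa14, of the Hsp70 chaperone family, and Cdnf, a neurotrophic factor for dopamine neurons, start back to back on chromosome 2 and share most of their sites, with -0.32 (-1.32 to 0.675) and -0.61 (-1.58 to 0.363). Tesmin, a gene of the testis, showed -0.74 (-2.05 to 0.569), and Rab10os, transcribed opposite Rab10, showed -1.01 (-2.36 to 0.341). The remaining start of Eif4enif1 had the value nearest 0, at -0.01 (-1.60 to 1.58), followed by 4930433N12Rik at -0.02 and LOC115490388 at -0.06. Fam171a1, Gm46840, 3300002P13Rik and Zfp358 lay between -1.74 and -0.52. Fractional-tag sites were 3 of 4 at 4930433N12Rik, 2 of 4 at LOC115490388 and 1 of 5 at Gm46840. Part of the tags at those promoters may therefore belong to other places.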

How the data were processed

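HELP tagging counts came from 4 libraries, 1 per group, so each total in the report is also that library's depth. The authors deposited tags per CCGG position as estimated counts: column 6 holds the sum of a pair of parts, whole at most sites and divided at the others. Positions are in mm9, per the submitters' processing notes. Not given in the sources used are the aligner and how multiply matching tags were divided. A site counted as whole-tag where all 4 values lay within 0.01 of a whole number, so sites with no tag in any library are among them.

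Sums per density class were scaled to library totals and compared as log2 ratios with Wald intervals of Poisson counts. Bins and sites were tested with Fisher's exact test, its null odds ratio set by library totals, on tags rounded to whole numbers, with Benjamini-Hochberg adjustment over the whole table. The tests were checked on simulated data. Software comprised R 4.3.3, matplotlib 3.10.9, numba 0.67.0, scipy 1.17.1, pandas 2.3.3 and numpy 2.4.6 under Python 3.11.15. Promoter names rest on CCGG spacing, and no coordinate was converted between builds.

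Named were called bins and sites, the 3 highest and 3 lowest bins with an MspI difference of no more than 0.5 (log2), the 5 most tagged sites of each kind, the 6 largest dense runs, and the 2 highest and 2 lowest autosomes. The members and lists were chosen with earlier results of these data known. Promoters, exact tag matches and the 2 heavily tagged runs were chosen after values were seen. Alternatives varied the window, density radius, scaling, filters, bins and each autosome in turn.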

Additional observations from a re-analysis of the deposited data

How the results depend on the processing

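Values are log2 differences as in the report. The higher HpaII cutting of Emerald-high cells at isolated whole-tag sites kept its direction and its call under every alternative run. The gap between the first 500 kb and its neighbour did not: its call at isolated and at 5 to 9 CCGG was lost or turned under several. No paired analysis was possible because each group had 1 library. Depth limits dense sites most. Counting intervals take no account of spread beyond counting: at whole-tag sites the MspI libraries differed with a variance 1.38 times that of counting. Alternatives whose values changed a call, the sign of a called value or a count are given here, and the cause of each change was not tested. With a window of 250 kb, the window itself gave 0.11 at 2 to 4 CCGG and 1.19 at dense sites with fractional tags. The window minus its neighbour gave 0.0925 at all sites, -0.123 at 5 to 9 CCGG and -0.449 at dense sites. The level over the neighbour was -0.391 at 5 to 9 CCGG (Emerald-negative) and -0.237 at dense sites (Emerald-high). With a window of 1 Mb set against the next 1 Mb, the window itself gave -0.0322 at all sites and 0.0411 at 2 to 4 CCGG. Its contrast with the neighbour was -0.00584 at isolated sites and -0.0186 at 5 to 9 CCGG. Levels within a fraction, window over neighbour, were -0.0416 at isolated sites (Emerald-high), -0.0358 at isolated sites (Emerald-negative), -0.0186 at 5 to 9 CCGG (Emerald-high) and -0.0401 at dense sites (Emerald-high). Without the 0.1% most tagged sites, the window itself gave -0.0577 at all sites, 0.133 at all sites with fractional tags and 0.116 at 2 to 4 CCGG with fractional tags. Set against its neighbour, it differed by -0.058 at isolated sites, -0.0733 at 2 to 4 CCGG, 0.0244 at all sites with fractional tags and -0.0519 at isolated sites with fractional tags. The ratio of levels came to 0.0419 at isolated sites (Emerald-high), -0.0547 at 2 to 4 CCGG (Emerald-high) and 0.0186 at 2 to 4 CCGG (Emerald-negative). At sites with at least 10 MspI tags, the window itself gave 0.132 at all sites, 0.146 at 2 to 4 CCGG, -0.39 at dense sites and 1.28 at dense sites with fractional tags. The contrast between both stretches was -0.0932 at 2 to 4 CCGG and -0.163 at 5 to 9 CCGG. Window over neighbour, the level was 0.157 at all sites (Emerald-high) and 0.215 at all sites (Emerald-negative). With density counted within 250 bp, the window itself gave -0.147 at 2 to 4 CCGG. The level over the neighbour was 0.00855 at isolated sites (Emerald-high), 0.00378 at 2 to 4 CCGG (Emerald-high), -0.00194 at 2 to 4 CCGG (Emerald-negative), -0.186 at 5 to 9 CCGG (Emerald-negative) and -0.129 at dense sites (Emerald-high). With density counted within 1000 bp, the window itself gave 0.139 at 2 to 4 CCGG and 0.242 at 2 to 4 CCGG with fractional tags. The window minus its neighbour gave -0.079 at isolated sites, -0.137 at 2 to 4 CCGG, 0.0527 at 5 to 9 CCGG and -0.181 at dense sites. Levels within a fraction, window over neighbour, were -0.0189 at isolated sites (Emerald-high), 0.0601 at isolated sites (Emerald-negative) and -0.306 at 5 to 9 CCGG (Emerald-negative). Against all autosomal sites beyond 500 kb, the level of the window over its neighbour was 0.125 at all sites (Emerald-high), 0.159 at all sites (Emerald-negative), -0.0151 at 5 to 9 CCGG (Emerald-high), 0.124 at 5 to 9 CCGG (Emerald-negative) and -0.11 at dense sites (Emerald-high). Scaled to dense sites, the window itself gave 0.687 at all sites, 0.759 at 2 to 4 CCGG, 0.123 at 5 to 9 CCGG, -0.177 at dense sites, 0.591 at all sites with fractional tags, 0.62 at 2 to 4 CCGG with fractional tags, 0.268 at 5 to 9 CCGG with fractional tags and 0.527 at dense sites with fractional tags. From the HpaII libraries alone, the window itself gave 0.0892 at 2 to 4 CCGG and 0.056 at 2 to 4 CCGG with fractional tags. Its contrast with the neighbour was 0.0535 at all sites and 0.00506 at 5 to 9 CCGG. With whole-tag and fractional-tag sites together, the window itself gave -0.0685 at all sites. Set against its neighbour, it differed by -0.0829 at 2 to 4 CCGG and -0.0566 at 5 to 9 CCGG. The ratio of levels came to 0.0303 at all sites (Emerald-high), 0.0583 at all sites (Emerald-negative), 0.0427 at isolated sites (Emerald-high) and -0.219 at dense sites (Emerald-negative). Bins called higher, 3 in the report, numbered 30 (32.6%, against 48.0% of all bins) when scaled to dense sites. By the adjusted p alone there were 13 (14.1%, against 20.5%), with 7 lower (7.61%, against 5.4%). The variance factor left 2 (2.17%, against 4.74%), and whole-tag sites alone gave 4 of 89 (4.49%, against 7.05%). Thinning Emerald-negative HpaII tags to the Emerald-high depth left 1 (1.09%, against 6.5%). Bins of 50 kb gave 10 (5.43%, against 8.57%), and bins of 250 kb gave 0 (against 1.64%). Sites called higher by Fisher's exact test, 2 in the report, numbered 72 (7.35%, against 4.15% of all sites) when scaled to dense sites. With the variance factor there were 0, against 0.016%. The thinned library gave 0, against 0.0293%, and 1 lower (0.102%, against 0.027%). With at least 5 MspI tags per site there was 1 (0.0464%, against 0.0258%). By the adjusted p alone 3 were higher (0.306%, against 0.106%) and 4 lower (0.409%, against 0.0576%). With minima of 4 and 20 tags, chosen after seeing the data, 73.0% and 66.2% of the window's fractional-tag sites had an exact match.

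Leaving out each autosome in turn, the window itself ranged over -0.0408 to -0.0194 at all sites, 0.0126 to 0.0659 at 2 to 4 CCGG, -0.161 to 0.164 at all sites with fractional tags and -0.137 to 0.132 at 2 to 4 CCGG with fractional tags. The window minus its neighbour ranged over -0.152 to -0.0657 at isolated sites, -0.152 to -0.0821 at 5 to 9 CCGG, -0.241 to -0.144 at dense sites, -0.245 to 0.0946 at all sites with fractional tags and -0.122 to 0.306 at 5 to 9 CCGG with fractional tags. The level of the window over its neighbour ranged over -0.211 to -0.0191 at all sites (Emerald-high), -0.236 to -0.00694 at all sites (Emerald-negative), 0.00102 to 0.153 at isolated sites (Emerald-high), -0.109 to 0.193 at 2 to 4 CCGG (Emerald-high), -0.0893 to 0.25 at 2 to 4 CCGG (Emerald-negative), -0.194 to 0.0218 at 5 to 9 CCGG (Emerald-negative) and -0.199 to -0.0988 at dense sites (Emerald-high).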
